A study of Homo sapiens with 34 samples.

Results

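The heavy chain variable segments were the 67 genes, of 31975 in the table, whose symbol began with IGHV. They were taken by name from RNA sequencing of 34 established human B-cell lymphoma lines, and every one of the 67 was followed in every line. In 28 of the 32 lines with at least 100 IGHV reads, more than 50% of those reads fell on a single segment, and in 13 lines more than 90% did. The leading segment differed from line to line, with 15 different segments in the lead. The pseudogene IGHV5-78 carried reads in 33 of 34 lines and was the highest row in 7 of the 32 lines with at least 100 IGHV reads. The counts above include these lines. With IGHV5-78 set aside, 29 lines kept at least 100 IGHV reads, and the leading segment took over 90% of them in 18. The summed IGHV level was higher in the mantle cell lymphoma lines than in the large-cell lines of germinal centre type. No difference in the share or the lead of the top segment, or in segment use, passed its test between pathologies.

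Each B cell builds its heavy chain gene by joining a variable (V), a diversity (D) and a joining (J) segment on chromosome 14. The RAG1 and RAG2 proteins cut the DNA, and the non-homologous end joining enzymes close it. A rearranged V segment lies close to the enhancer of the constant genes and is transcribed strongly, so a population that descends from a single B cell is expected to show a single dominant V segment. In germinal centres the V segment gains point mutations, and the constant gene can switch from IGHM to an IGHG, IGHA or IGHE gene. IGHV4-34 is known for encoding antibodies that bind self antigens on red blood cells.

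The lines comprised 11 of mantle cell lymphoma (MCL), 3 of Burkitt lymphoma (BL) and 20 of diffuse large B-cell lymphoma (DLBCL). Of the latter, 14 were classed as germinal centre B-cell type (GCB DLBCL) and 6 as activated B-cell type (ABC DLBCL). Each was sequenced once from total RNA, no treatment or genetic change was named in the labels, and the lines served as replicates of a pathology. P-values therefore measure the spread between lines, with no repeat of a line. A line is a long-cultured descendant of a single tumour, which limits it as a model of that pathology. Recovered depth was 60.1 to 109 M reads per MCL library and 22.6 to 92.4 M per BL library. GCB DLBCL libraries held 2.55 to 108 M reads and those of ABC DLBCL 22.7 to 165 M. RPM stands below for reads scaled to a library of 1 M reads.

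Some libraries stood apart. In 9 libraries, those of 8 GCB DLBCL lines and of the ABC DLBCL line NU-DUL-1, the genes ZNF593 and EMC6 had 0 reads, while the other 25 libraries had reads of both. Results that compare pathologies are therefore also given for the 25 libraries alone. The MCL lines SP-49 and SP-53 resembled each other more than any other of the 561 pairs of lines, with a correlation across 22044 genes outside the immunoglobulin loci of 0.98 against a median pair at 0.88. They were also the single pair of lines that shared both the leading heavy chain segment and the leading light chain segment, IGHV4-34 and IGLV3-19. Both are kept as labelled, and the tests between pathologies were also run with either left out. A further difference lies in the origin of the data. The labels mark 30 of the 34 libraries as re-analysed from earlier deposits, and the other 4 are Daudi of BL and HBL-2, MAVER-1 and UPN1 of MCL. The labelled cell type was visible in all 34 lines, since the B-cell markers MS4A1, CD79A, CD79B, PAX5 and CD22 had reads in every line. Summed T-cell markers stayed at or below 25.8 RPM, apart from 701 in Pfeiffer and 167 in Karpas422. Nearly all of either sum came from a single gene, CD8A at 699 in Pfeiffer and CD3G at 163 in Karpas422. Summed myeloid markers reached at most 12.1, and stromal markers at most 62.1 outside Karpas422, where they reached 467 through the single gene DCN. Summed plasma cell markers ran from 83.4 to 969 in MCL with a median of 428, and from 2.30 to 1461 in GCB DLBCL with a median of 158. Their medians were 749 in ABC DLBCL and 352 in BL. The part of such cells in the results was not tested.

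Of the 67 rows, 38 are annotated in the RefSeq table of build GRCh38.p14 as V segments and 22 as V segment pseudogenes. A further 4 are pseudogenes and 3 have no entry there. The family in the symbol was IGHV1 in 10 rows, IGHV2 in 2, IGHV3 in 27, IGHV4 in 8, IGHV5 in 2 and IGHV7 in 3. The remaining rows were 8 pseudogenes named by clan, such as IGHVII-60-1, and 7 orphons, which are copies on other chromosomes. The 59 rows on chromosome 14 span 888 kb. The reference table names 48 V segments there, of which 37 matched a row, and the other 11, among them IGHV2-5, IGHV5-10-1 and IGHV6-1, were not analysed here. A line that uses such a segment could therefore show another row in the lead, or a low summed level.

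In 3 rows the name in the table differed from the reference name of the same identifier. The row printed here as IGHV1-69-2 (ENSG00000280411) is IGHV1-69D in the reference. The table held IGHV2-70 in 2 rows, of which ENSG00000211974 is IGHV2-70D in the reference and is called so here, and IGHVII-31-1 is IGHVII-28-1. IGHV1-69D and IGHV2-70D are near-identical copies of IGHV1-69 and IGHV2-70, so how reads were divided within each of these pairs is uncertain. Whether reads were counted by strand, or how reads that match several segments were counted, was not given in the sources used here.

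A value is on the log2 variance-stabilised scale of the deposited table, where 4.55 stands for 0 reads. A share is a segment's percentage of the IGHV reads of its line, and a lead is the log2 value of the top segment minus that of the second. The genes that led in some line are 432 to 462 bases long from start to end, and ranking by reads per base left the same row in the lead in all 32 lines. The 95% Wilson interval of the leading share was at most 5.21 percentage points wide in the 26 lines with 1000 or more IGHV reads. It was up to 17.3 points wide in 6 lines under 1000 reads, all GCB DLBCL. These intervals cover counting error only. DB and Karpas422 had 39 and 12 IGHV reads, too few for a share, and were left out of the tests of shares, leads and leading rows.

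Among the 32 lines, 25 were led by a row annotated as a V segment. Of the 15 leading rows 7 led in at least 2 lines and 8 in a single line. IGHV5-78 led in 7 lines, IGHV4-34 in 5, IGHV1-2 and IGHV3-20 in 3 each, and IGHV3-7, IGHV3-21 and IGHV4-59 in 2 each. The rows that led in a single line were IGHV3-11, IGHV3-15, IGHV3-48, IGHV3-53, IGHV3-73, IGHV3-74, IGHV2-70 and IGHV1-69-2. At the level of 1% of a line's IGHV reads, 49 of the 67 rows were reached in at least 1 line and 18 were reached in none.

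**Figure D1:**
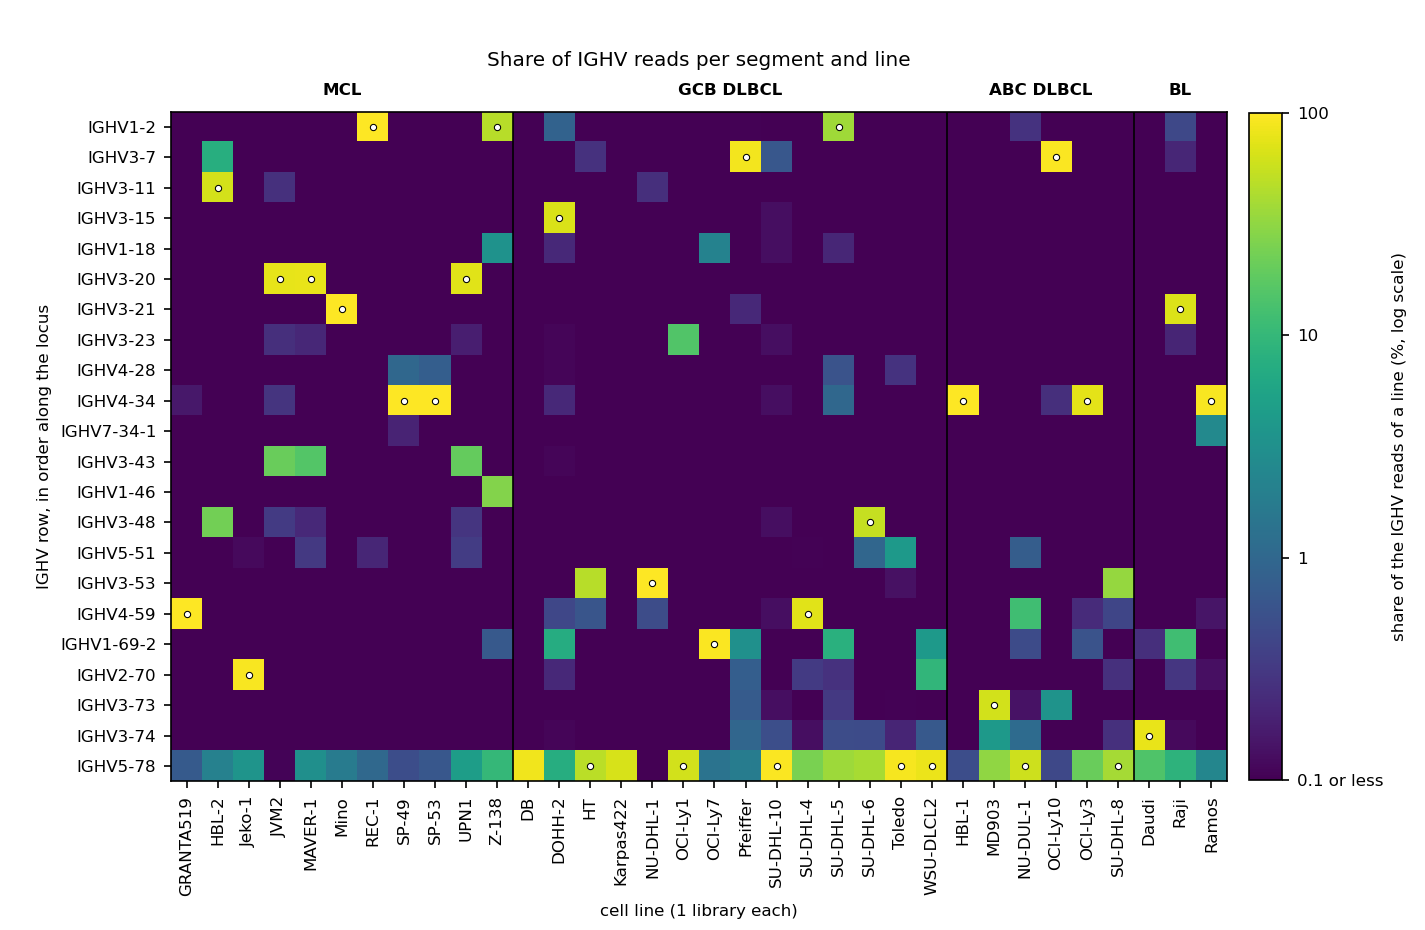
Share of the IGHV reads of each cell line (columns, grouped by pathology) that fell on each IGHV row ranked first or second in some line with at least 100 reads (rows, in order along the locus), in percent on a logarithmic colour scale, with a white dot on the leading row. Most columns hold 1 bright cell, IGHV4-34 leads in 5 lines of 3 pathologies, and the IGHV5-78 row at the bottom is filled in nearly every column.

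In MCL the leading segment took a median of 93.9% of the IGHV reads (n = 11, lowest 47.1%, highest 98.7%). REC-1 held 90341 of 91579 IGHV reads on IGHV1-2, with a value of 15.41 and a lead of 6.43. GRANTA519 held 98.5% on IGHV4-59 at 15.27, and its lead of 6.90 was the widest in MCL. Mino held 97.6% on IGHV3-21 at 14.78, and Jeko-1 held 93.9% on IGHV2-70 at 15.11. In these 4 lines the second row was IGHV5-78 with at most 3.56% of the reads.

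SP-49 and SP-53 were both led by IGHV4-34, with 98.3% and 98.5% of the reads and values of 13.46 and 15.21. Their second row was also the same, IGHV4-28, with 348 and 669 reads. IGHV4-28 reached 1% of the reads in SP-49 and in no other line.

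JVM2, MAVER-1 and UPN1 formed a further set with the same leader. IGHV3-20 took 77.4%, 80.1% and 74.0% of their reads, at values of 13.12, 13.11 and 12.49. IGHV3-43, 19 rows and 259 kb away on chromosome 14, was second in all 3, with 20.5%, 15.6% and 19.4%. Outside these 3 lines IGHV3-20 did not exceed 4.92. Their light chains differed: IGLV2-14 led in JVM2, IGLV3-1 in MAVER-1 and IGKV1D-12 in UPN1.

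The remaining MCL lines were spread over several rows of 1 family. In HBL-2 IGHV3-11 took 64.2% and IGHV3-48 took 23.2%, followed by IGHV3-7 with 2691 reads, 7.67%. Z-138 had the lowest leading share in MCL, with IGHV1-2 at 47.1% and IGHV1-46 at 27.5%, a lead of 0.76. Z-138 also held 1253 of its 19358 IGHV reads on the orphon IGHV1OR16-1, the only line with reads of that row. All the named rows of HBL-2 belong to family IGHV3 and those of Z-138 to family IGHV1. How far reads of a single rearranged gene were divided among similar rows in these lines was not tested.

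In GCB DLBCL the leading share had a median of 76.7% (n = 12, lowest 37.6%, highest 99.3%). NU-DHL-1 had 395 of 398 reads on IGHV3-53 (99.3%, interval 97.8 to 99.7). OCI-Ly7 had 95.9% on IGHV1-69-2 at 15.23, the highest IGHV value in GCB DLBCL. Pfeiffer had 89.5% on IGHV3-7 at 12.10, and SU-DHL-4 had 72.4% on IGHV4-59 at 11.91. DOHH-2 had 613 of 910 reads on IGHV3-15 (67.4%, interval 64.3 to 70.3), and 29 rows had at least 1 read. In SU-DHL-6 113 of 207 reads fell on IGHV3-48 (54.6%, interval 47.8 to 61.2). IGHV1-2 and IGHV5-78 were nearly level in SU-DHL-5, with 1811 and 1747 reads and a lead of 0.05. The lowest leading share of the 32 lines was that of SU-DHL-5, 37.6%.

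The other 5 GCB DLBCL lines were led by IGHV5-78. HT had 1674 reads of it and 1598 of IGHV3-53, which were level within 0.06 on the log2 scale. In Toledo, SU-DHL-10, WSU-DLCL2 and OCI-Ly1 IGHV5-78 took 91.2%, 96.9%, 81.0% and 62.4%. Little else was read there, with 256, 24, 28 and 44 IGHV reads on all other rows together. The next rows were IGHV5-51 in Toledo (119 reads), IGHV3-7 in SU-DHL-10 (5 reads), IGHV2-70 in WSU-DLCL2 (14 reads) and IGHV3-23 in OCI-Ly1 (18 reads). In SU-DHL-10, which was sequenced to 98.3 M reads, no row other than IGHV5-78 exceeded 5 reads.

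In ABC DLBCL the highest IGHV value of the series was seen in HBL-1, where IGHV4-34 reached 16.25, with 185539 of 186607 reads and a lead of 7.45. OCI-Ly3 was also led by IGHV4-34, at 9.65 and 75.1% of 3875 reads, so the values of these 2 lines differed by more than 6 log2 units. OCI-Ly10 had 95.5% on IGHV3-7 at 13.09, with IGHV3-73 second at 3.51%. MD903 was led by IGHV3-73 with 828 of 1319 reads, 62.8%. In SU-DHL-8 IGHV5-78 and IGHV3-53 stood at 2103 and 1817 reads, and the neighbouring pseudogene IGHV3-52 added 673. NU-DUL-1 was led by IGHV5-78 with 59.7%, and no other row took more than the 11.9% of IGHV4-59. Thus 9 rows reached 1% in NU-DUL-1, the most in any line.

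In BL each line had a different leader. Ramos had 94.3% on IGHV4-34 at 15.96, with the pseudogene IGHV7-34-1, the next row on the chromosome, second at 2.58%. Daudi had 79.9% on IGHV3-74 at 12.58, with IGHV5-78 second at 14.8% and the orphon IGHV3OR16-13 at 212 reads. Raji had 69.0% on IGHV3-21 at 13.22, then 12.1% on IGHV1-69-2 and 8.73% on IGHV5-78. Raji also had the widest set of rows with any read, 42 of 67, against a median of 18 over all lines.

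**Figure D2:**
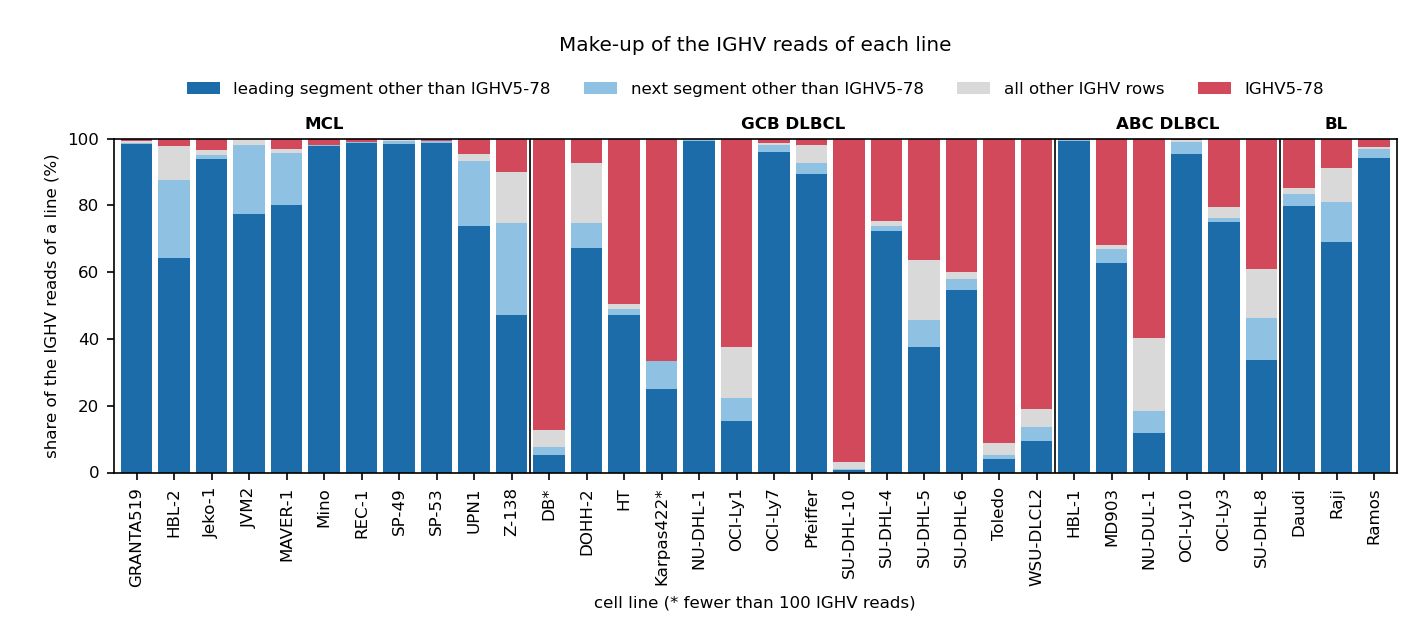
Make-up of the IGHV reads of each line in percent, by the leading segment other than IGHV5-78 (dark blue), the next such segment (light blue), all other rows (grey) and IGHV5-78 (red), with lines grouped by pathology and an asterisk on the 2 lines under 100 reads. IGHV5-78 takes at most 9.93% of an MCL line and up to 96.9% of a GCB DLBCL line with 100 reads or more.

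IGHV5-78 (ENSG00000211978) is a V segment pseudogene, which cannot give a heavy chain, near the end of the locus farthest from the D, J and constant genes (GRCh38.p14, chr14:106851112-106851546). Only 3 of the 59 rows on chromosome 14 start beyond it. Its level ran over a narrower range than the sum of all other IGHV rows. It lay from 0.198 RPM in JVM2 to 40.1 in WSU-DLCL2 in the 33 lines with a read. NU-DHL-1 had 0 reads in a library of 2.55 M, which allows up to 1.18 RPM. All other IGHV rows together ran from 0.244 to 1797 RPM. IGHV5-78 exceeded the sum of all other IGHV rows in 7 lines, namely DB, Karpas422, OCI-Ly1, SU-DHL-10, Toledo and WSU-DLCL2 of GCB DLBCL and NU-DUL-1 of ABC DLBCL, and in no MCL or BL line. In DB this rested on 34 reads against 5, and in Karpas422 on 8 against 4.

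On the log2 scale IGHV5-78 averaged 10.39 ± 0.26 in BL (SD, n = 3) and 8.38 ± 1.33 in MCL (SD, n = 11). It averaged 8.53 ± 1.43 in ABC DLBCL (SD, n = 6) and 8.71 ± 1.66 in GCB DLBCL (SD, n = 14). The BL lines Raji, Daudi and Ramos had 27.3, 38.4 and 39.1 RPM. The largest of its pairwise differences, MCL minus BL at -2.01 ± 0.91 (SE), did not pass the threshold by limma (adjusted p = 0.38). Among the lines with at least 100 IGHV reads, IGHV5-78 led in 4 of the 25 libraries with ZNF593 and EMC6 reads and in 3 of the 7 without. It was second in 12 lines and so first or second in 19.

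**Figure D3:**
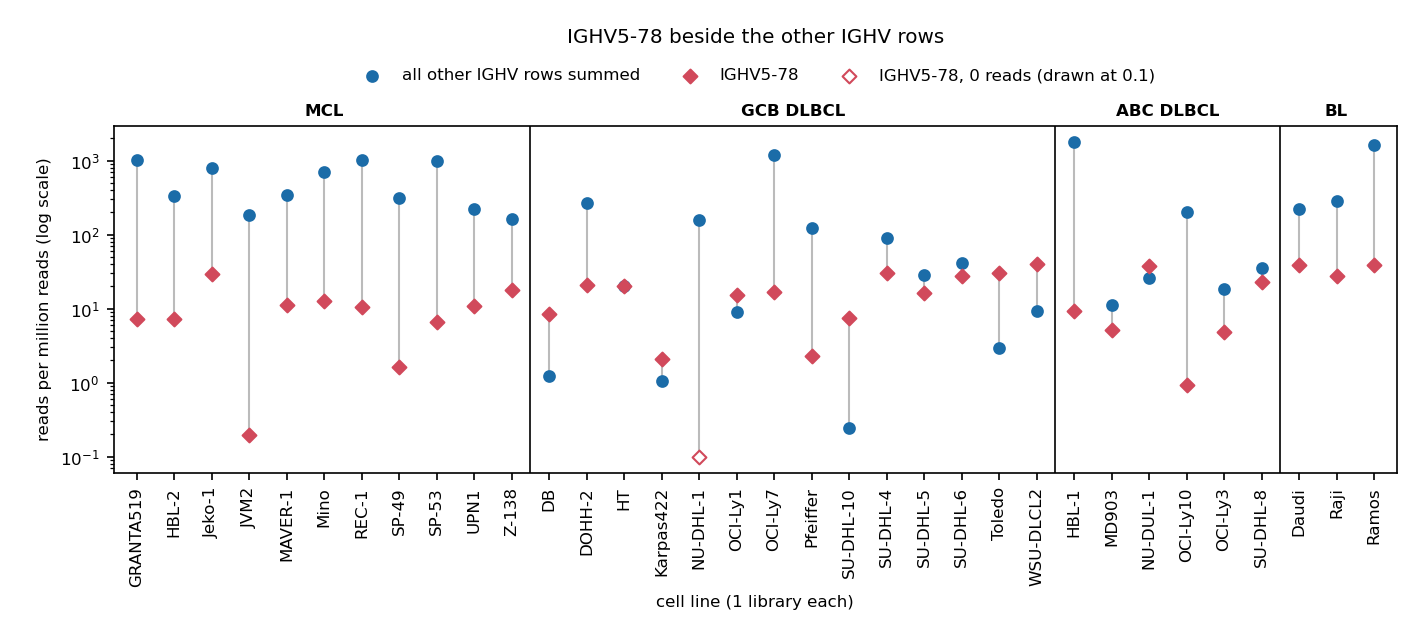
Level in RPM of IGHV5-78 (red diamonds) and of all other IGHV rows summed (blue circles) in each line, on a logarithmic axis, with a grey bar joining the pair of values of a line and an open diamond for the line with 0 reads. The red values lie within 0.198 to 40.1, while the blue values run from 0.244 to 1797 and fall below the red ones in 7 lines.

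With IGHV5-78 set aside, 29 lines kept at least 100 IGHV reads, and the leading segment took over 90% of them in 18. The leading family was then IGHV3 in 15 lines, IGHV4 in 8, IGHV1 in 4, IGHV2 in 1 and IGHV5 in 1. By pathology IGHV3 led in 5 of 11 MCL lines, 2 of 3 BL lines, 3 of 6 ABC DLBCL lines and 5 of 9 GCB DLBCL lines. IGHV4 led in 3, 1, 3 and 1 of them, in that order. In these 29 lines the leader's whole family held over 90% of those reads in 23, with a median of 98.4%. The lowest family share was 42.5%, in NU-DUL-1. The runner-up belonged to the family of the leader in 16 of the 29 lines, among them HBL-2, JVM2, MAVER-1, UPN1 and Z-138. Pseudogenes other than IGHV5-78 held a median of 0.458% of these reads and at most 23.0%, in SU-DHL-8.

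Clonality, taken as the share of the top segment, was compared between pathologies over lines with at least 100 IGHV reads. In 5 GCB DLBCL and 2 ABC DLBCL lines, and in no MCL or BL line, the top row was the pseudogene IGHV5-78. Its share does not measure the clonality of a heavy chain, and shares without it are given below. The mean share was 84.4 ± 17.4% in MCL (SD, n = 11) and 81.0 ± 12.7% in BL (SD, n = 3). It was 71.9 ± 22.9% in ABC DLBCL (SD, n = 6) and 74.8 ± 20.7% in GCB DLBCL (SD, n = 12). All 4 ranges overlapped. MCL exceeded GCB DLBCL by 9.59 percentage points (two-sided permutation p = 0.24, adjusted p = 0.62) and ABC DLBCL by 12.5 points (two-sided exact permutation p = 0.22, adjusted p = 0.62), differences smaller than the spread within each group. Adjustment was by the Benjamini-Hochberg method over 18 tests, those of 3 measures in 6 pairs of pathologies. The other 4 differences in share had an adjusted p of 0.89.

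The lead of the top over the second segment averaged 4.08 ± 2.42 in MCL (SD, n = 11) and 3.34 ± 1.57 in BL (SD, n = 3). It averaged 2.81 ± 2.72 in ABC DLBCL (SD, n = 6) and 2.75 ± 2.07 in GCB DLBCL (SD, n = 12). The lowest leads were 0.05 in SU-DHL-5, 0.06 in HT and 0.20 in SU-DHL-8, and each of these was against IGHV5-78 or of IGHV5-78. The highest were 7.45 in HBL-1, 6.90 in GRANTA519 and 6.77 in SP-53. MCL exceeded GCB DLBCL by 1.33 (permutation p = 0.17, adjusted p = 0.61), and the 6 differences in lead had adjusted p-values from 0.61 to 0.96. Without IGHV5-78 the mean shares were 86.3% in MCL, 83.0% in GCB DLBCL, 77.96% in ABC DLBCL and 88.7% in BL, over the lines with at least 100 reads left, and MCL minus BL changed sign, from 3.34 to -2.36 points.

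Segment use was compared by the leading row, as the use of IGHV4-34 in activated B-cell type lymphoma and of IGHV3-21 in mantle cell lymphoma is a known question. IGHV4-34 led in 2 of 6 ABC DLBCL lines, HBL-1 and OCI-Ly3, and in 3 of the 26 others, SP-49, SP-53 and Ramos (two-sided exact permutation p = 0.23, adjusted over 5 tests p = 0.90). With either SP-49 or SP-53 left out, the difference was 25.3 percentage points in place of 21.8 (exact permutation p = 0.16, adjusted p = 0.80). It led in none of the 12 GCB DLBCL lines. IGHV3-21 led in 1 of 11 MCL lines, Mino, and in 1 of the 21 others, Raji (permutation p = 1, adjusted p = 1). Family IGHV1 led in 2 of 11 MCL lines against 2 of 21 others, IGHV3 in 5 against 8 and IGHV4 in 3 against 4 (adjusted p = 0.90 each). The IGHV4 difference of 8.23 points was 0.952 with either SP-49 or SP-53 left out. Because IGHV3-21 led in only 2 lines, its test could not have passed whichever pathology they came from. With so few lines per segment, none of these shares differed detectably.

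The summed level of the 67 rows was tested as log2(RPM + 1). It covers these rows only, so a line that uses a V segment without a row could read low, which was not tested. MCL lines lay between 178 RPM in Z-138 and 1034 in GRANTA519, with a median of 357. GCB DLBCL lines lay between 3.16 in Karpas422 and 1225 in OCI-Ly7, with a median of 47.0. OCI-Ly7 and DOHH-2 were the 2 GCB DLBCL lines above the lowest MCL line, and all 11 MCL lines lay above the GCB DLBCL median. The mean level was 8.85 ± 1.01 in MCL (SD, n = 11) and 5.76 ± 2.14 in GCB DLBCL (SD, n = 14), a difference of 3.08 log2 units (two-sided permutation p = 0.00031, adjusted p = 0.00558). Within the 25 libraries with ZNF593 and EMC6 reads, 6 of them GCB DLBCL, it was 3.34 (adjusted p = 0.0015). Without SP-49 it was 3.14 and without SP-53 2.97, and the call held in both. Without IGHV5-78 it was 4.17 (adjusted p = 0.0047), and in the re-analysed libraries 3.30 (adjusted p = 0.015). The summed plasma cell markers, given above, also had a higher median in MCL than in GCB DLBCL, with overlapping ranges, and their part in this difference was not tested. In bulk RNA, fewer cells that transcribe the gene and less RNA per cell cannot be told apart.

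ABC DLBCL spanned nearly the whole range, with 16.2 RPM in MD903, 23.5 in OCI-Ly3, 58.9 in SU-DHL-8, 63.4 in NU-DUL-1, 203 in OCI-Ly10 and 1806 in HBL-1. HBL-1 and OCI-Ly10 alone lay above the lowest MCL line. MCL exceeded ABC DLBCL by 2.32 log2 units (exact permutation p = 0.014, adjusted p = 0.13), which did not pass. BL had 259 RPM in Daudi, 313 in Raji and 1642 in Ramos, all within or above the MCL range. BL exceeded GCB DLBCL by 3.24 (exact permutation p = 0.028, adjusted p = 0.17) and ABC DLBCL by 2.48 (adjusted p = 0.61). MCL minus BL was -0.15 and ABC minus GCB DLBCL 0.76, both within the spread of the lines (adjusted p = 0.89).

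**Figure D4:**
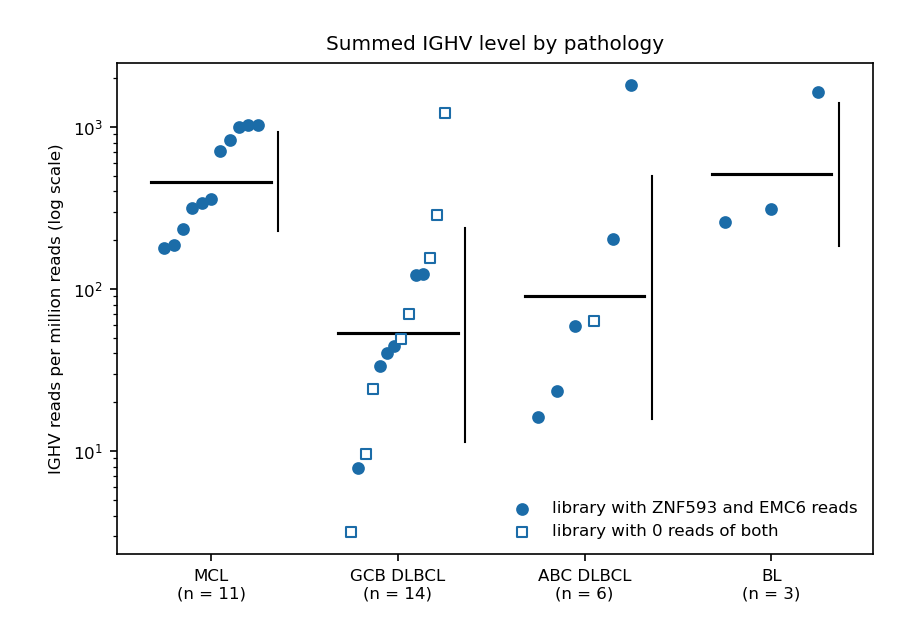
Summed IGHV level in RPM of each line on a logarithmic axis by pathology, with filled circles for libraries with ZNF593 and EMC6 reads and open squares for libraries with 0 reads of both; the horizontal line is the mean and the vertical line the SD, both taken on log2(RPM + 1). MCL lines sit between 178 and 1034 and GCB DLBCL lines between 3.16 and 1225, with a median of 47.0.

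The constant genes, which encode the remainder of the heavy chain, moved with the segments. Across the 34 lines the summed IGHV level and the summed level of 9 constant genes correlated with r = 0.81 and rho = 0.87 (permutation p = 1e-05 each, the smallest that 100000 resamples can give, adjusted p = 5e-05 and 2.5e-05 over 5 relations). Without Karpas422 and Toledo, the lines farthest from the median, r was 0.80, and within the 25 libraries with ZNF593 and EMC6 reads it was 0.78. IGHV reads per 100 constant reads ran from 0.262 in SU-DHL-10 to 16.3 in Jeko-1, with a median of 4.39. In SU-DHL-10 the constant genes stood at 2989 RPM, of which IGHG4 took 93.3%, while IGHV rows other than IGHV5-78 stood at 0.244. IGHM led the constant genes in 10 of 11 MCL and 3 of 3 BL lines, against 6 of 14 GCB DLBCL and 3 of 6 ABC DLBCL lines.

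Light chain variable segments also followed, with r = 0.68 and rho = 0.73 between their summed level and that of IGHV (n = 34, permutation p = 2e-05 and 1e-05, adjusted p = 5e-05 and 2.5e-05). Without DB and MD903 r was 0.61, and within the 25 libraries it was 0.56. No relation was detected between the share of the top IGHV segment and that of the top light chain segment (n = 32, r = -0.11, rho = -0.07, permutation p = 0.56 and 0.70). The same held for the log10 total reads (n = 32, r = 0.02, rho = 0.0037, permutation p = 0.92 and 0.98). The adjusted p-values were 0.92 for r and 0.98 for rho in both of these relations. Without the 2 farthest lines r was -0.14 for the light chain share and 0.13 for the total reads.

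**Figure D5:**
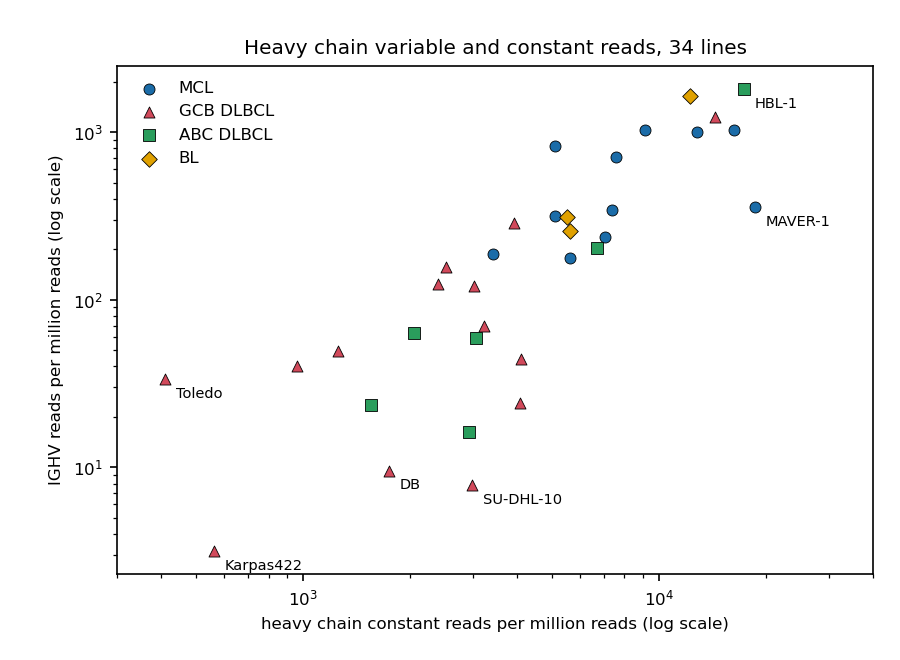
Summed IGHV RPM against summed heavy chain constant RPM in the 34 lines, both axes logarithmic, with a symbol for each pathology. The points rise together (r = 0.81 on log2 values), with SU-DHL-10 low in IGHV for its constant level and HBL-1 and Ramos at the top.

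Single segments were then compared with limma on the deposited values, over the 22167 genes that lay over 1 log2 unit above the table's minimum in at least 3 lines. Only 29 of the 67 rows passed that filter, since a segment that is high in 1 or 2 lines is removed by it. IGHV3-21, the leader in Mino and Raji, and IGHV3-15, the leader in DOHH-2, were among those removed. In MCL against BL 2 of the 29 rows were called, both lower in MCL, where 1.16% of all genes tested were called. None was called in MCL against GCB DLBCL (23.4% of all genes called), MCL against ABC DLBCL (0.686%), ABC against GCB DLBCL (0.681%), BL against GCB DLBCL (0.153%) or BL against ABC DLBCL (0.117%). At an unadjusted p under 0.05 the rows numbered 3, 3, 2, 4 and 5 in these 5 comparisons, in that order, and 5 in MCL against BL. The shares of all genes under that p were 38.5%, 10.6%, 17.3%, 15.0% and 8.56% in the same order, and 11.3% in MCL against BL. The median difference of the 29 rows was 0.07 in MCL minus GCB DLBCL, beside -0.02 over all genes.

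IGHV3-74 (ENSG00000224650) stood at 12.58 in Daudi, 5.72 in Raji and 5.53 in Ramos, and between 4.55 and 5.33 in the 11 MCL lines. All 3 BL lines were above all MCL lines, but the difference of -2.94 ± 0.71 (SE, limma adjusted p = 0.033) rested on Daudi, where it is the leading row. Without Daudi it was -0.62 (adjusted p = 0.71), in the re-analysed libraries, which lack Daudi, it was -0.68 (adjusted p = 0.78), and within the 25 libraries it did not pass (adjusted p = 0.069). IGHV1-69 stood at 5.30 in Daudi, 8.05 in Raji and 6.09 in Ramos and between 4.55 and 5.35 in MCL, so Daudi overlapped the MCL range. Its difference of -1.78 ± 0.43 (SE, limma adjusted p = 0.029) was -1.001 without Raji (adjusted p = 0.47) and -1.98 without Ramos (adjusted p = 0.065). It passed without Daudi, at -2.37 (limma adjusted p = 0.017), and in the re-analysed libraries, at -2.375 (limma adjusted p = 0.040). In Raji the IGHV1-69 reads stood beside 3502 on the near-identical copy IGHV1-69-2. Within the 25 libraries IGHV1-69 passed (adjusted p = 0.011), as did IGHV7-81 (-1.96 ± 0.46 (SE), limma adjusted p = 0.028). On log2 RPM neither IGHV1-69 nor IGHV3-74 passed (adjusted p = 0.058 for IGHV1-69 and 0.050 for IGHV3-74).

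IGHV3-20 showed how few lines carry a difference. It averaged 6.83 ± 3.91 in MCL (SD, n = 11) and 4.59 ± 0.08 in GCB DLBCL (SD, n = 14), through the 3 lines it leads. It passed the filter on low values through these 3 MCL lines alone, of which MAVER-1 and UPN1 are not re-analysed libraries, so a row kept in this way had to be higher in MCL and its p-values are given as a description. The difference of 2.24 ± 0.86 (SE) had a limma adjusted p of 0.056, and of 0.046 when either SP-49 or SP-53 was left out. IGHV4-34 differed by 2.80 ± 1.55 between ABC and GCB DLBCL (limma adjusted p = 0.34), with HBL-1 and OCI-Ly3 high, the other 4 ABC DLBCL lines at 5.93 or below and the GCB DLBCL lines at 5.77 or below.

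The other genes of heavy chain assembly were taken from 5 lists of 38 genes in all, of which 36 could be tested. In MCL against GCB DLBCL 23.4% of all genes were called, and the counts of 2 of 9, 3 of 10 and 1 of 6 genes in the lists below lie near that share. Of the 9 heavy chain constant genes 2 were higher in MCL than in GCB DLBCL. IGHD, the constant gene of the IgD receptor of naive B cells, differed by 5.29 ± 1.11 (SE, limma adjusted p = 0.0019), with 12.98 ± 1.61 in MCL (SD, n = 11) and 7.69 ± 3.72 in GCB DLBCL (SD, n = 14). IGHM, the constant gene of IgM, differed by 7.56 ± 1.79 (adjusted p = 0.0046), with 17.80 ± 1.26 against 10.24 ± 5.86. Both passed within the 25 libraries, at 5.60 and 8.25 (adjusted p = 0.014 and 0.011), while in a fit with a term for the library class IGHM fell short (7.02, adjusted p = 0.087). No constant gene was called in the other 5 comparisons.

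Of the 10 V(D)J recombination genes tested, XRCC5 (0.67), a subunit of the Ku protein that binds broken DNA ends, and HMGB1 (0.73), a DNA-bending cofactor of RAG cleavage, were higher in MCL than in GCB DLBCL. PRKDC (-1.67), the kinase that Ku recruits, was lower. Of 6 somatic hypermutation genes MSH6 (-0.90), a mismatch repair subunit, was lower in MCL. None of these 4 passed within the 25 libraries (limma adjusted p of 0.058 to 0.40). The recombinase genes were low in most lines, with a median of 5.38 for RAG1 and 4.55 for RAG2. They were highest in the ABC DLBCL line SU-DHL-8, at 13.39 and 11.17, followed for RAG2 by the GCB DLBCL line Toledo at 10.94.

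The joining segments, of which 5 of 6 were tested, and the 6 receptor partners gave no call in any comparison. By mean value the joining segments with the highest level were IGHJ6 (7.14), IGHJ5 (6.35) and IGHJ4 (5.54). Among the partners these were CD79A (14.40) and CD79B (14.03), which carry the signal of the receptor, and VPREB3 (10.47), a chaperone related to the surrogate light chain. CD79A ran from 11.74 in Pfeiffer to 16.32 in REC-1, and so was present in every line, those with few IGHV reads included.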

How the data were processed

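Values of 34 cell lines, 1 library each, were grouped by the pathology in the labels. The deposited table, made by the authors, holds log2 variance-stabilised counts per gene. Per the submitters' processing notes STAR 2.5.3a, R 3.6.1, DESeq2 1.26.0 and build GRCh38 were used, with no role given for each. The counter, annotation, strand setting and gene filter were not given in the sources used here.

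Reads were recovered by inverting the transform from its lowest value, and 100% of the values of every library came out whole within 0.05 reads. Totals were 2.55 to 165 M reads per library, so rows with few reads were measured least precisely in the shallow GCB DLBCL libraries. Shares need at least 100 IGHV reads. Levels are log2(RPM + 1), with RPM for reads scaled to a library of 1 M reads and a pseudocount of 1. Means of lines were compared by two-sided permutation tests, by full enumeration (exact) for groups under 10 lines and with 100000 resamples for larger ones (Python 3.11.15, NumPy 2.4.6, SciPy 1.17.1). Correlations have permutation p-values from 100000 resamples, adjusted over 5 relations, of which 1 is not reported here. Single rows were tested in 1 limma 3.58.1 fit over all lines (R 4.3.3, with trend and robust options), with Benjamini-Hochberg adjustment across the genes kept (over 1 log2 unit above the minimum in at least 3 lines), at a threshold of 0.05. Scripts were tested on simulated data. Segments were matched to RefSeq by symbol or identifier, with 3 of 67 rows unmatched.

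The rows named are the first and second of every line, every row or list gene past the limma threshold, and for lists without one the 3 with the highest mean. RAG1, RAG2, IGHV3-20 and IGHV4-34 in the limma comparison, and orphons and rows below the second, were chosen after their values were seen. The lists and the members were chosen with earlier results of these data known. Alternatives covered the libraries, the lines, the rows counted, the read minimum, the scale, the filter and each BL line left out. Those without IGHV5-78, SP-49 or SP-53 were chosen after seeing the data.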

Additional observations from a re-analysis of the deposited data

Results flagged for a closer look

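In HBL-1, an ABC DLBCL line, 10.4 IGHV reads were found per 100 heavy chain constant reads, while the other 5 ABC DLBCL lines lay between 0.554 and 3.09. The gap to the nearest line took up a large part of the range of the 6 lines, which is why the value stands apart. It was the single one among 5 measures tested in this way, all of them in the 6 ABC DLBCL lines. The other pathologies had too many or too few lines for the rule and were not tested. Chance gives such a gap in about 1 of 20 tests of a single measure, and the 5 measures come from the same lines. IGHV4-34 alone accounted for 99.4% of the IGHV reads of HBL-1.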

How the results depend on the processing

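The higher summed level of MCL than of GCB DLBCL passed the threshold under every alternative run, with differences of 2.72 to 4.17 log2 units. No other difference in level, share, lead or segment use passed under any, and directions changed only as follows. In the 25 libraries with ZNF593 and EMC6 reads, ABC minus GCB DLBCL in share was 1.52 points, the family IGHV4 difference of MCL was -1.30 points and r between top share and log10 total reads was -0.16. On the log2 ratio of reads, ABC minus GCB DLBCL in lead was -0.30. In the re-analysed lines the family IGHV3 difference of MCL was -10.0 points. Without IGHV5-78 the share of MCL minus BL was -2.36 points, the lead of BL minus ABC DLBCL -0.0414, the family IGHV3 and IGHV4 differences of MCL -10.1 and -0.51 points, and r between top share and depth -0.0704. That r was -0.0045 without SP-49.

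Leaving out each BL line in turn, MCL minus BL ran from -0.64 to 0.69 in level and from -2.69 to 9.97 points in share. BL minus GCB DLBCL ran from -0.38 to 12.3 points in share and from -0.32 to 1.07 in lead, and BL minus ABC DLBCL from -0.38 to 1.004 in lead. The number of IGHV rows called by limma in MCL against BL was 1 with any single BL line left out. That row was IGHV1-69 without Daudi and IGHV3-74 without Raji or without Ramos. Of all genes, 0.244%, 0.447% and 0.496% were called without Daudi, Raji and Ramos. The number was 0 on log2(RPM + 1) (0.771% of all genes), 1 in the re-analysed lines (0.176%) and 4 after median-centring (1.47%). Median-centring moved all differences of that comparison by -0.42. In BL against GCB DLBCL the number was 0 without Daudi (0.167% of all genes called). It was 1, IGHV3-74, without Raji (0.162%), without Ramos (0.153%) and after median-centring (0.185%). In BL against ABC DLBCL the number was 1 with any single BL line left out, but not the same row. It was IGHV1-69 without Daudi (0.0451% of all genes called) and IGHV3-74 without Raji (0.185%) or Ramos (0.117%). In the 25 libraries it was 1, IGHV1-69, where 0.528% of all genes were called. In MCL against GCB DLBCL the number was 1 without the filter, where 15.4% of all genes were called. It was also 1 without SP-49 (19.9% of all genes) and 1 without SP-53 (20.1%). The row without either line was IGHV3-20. It passed the filter through 3 MCL lines alone and so had to be higher in MCL, and these calls are only a description. In MCL against BL the called rows were IGHV1-69, IGHV3-71, IGHV3-74 and IGHV7-81 after centring. They were IGHV1-69 and IGHV7-81 in the 25 libraries and IGHV1-69 in the re-analysed lines. The row called without the filter in MCL against GCB DLBCL was IGHV3OR15-7. All genes called in MCL against GCB DLBCL numbered 5198, against 619 in the 25 libraries and 506 with a term for the library class. Over the alternatives run, the 257 genes of MCL against BL became 39 to 372, the 152 of MCL against ABC DLBCL 101 to 180, the 151 of ABC against GCB DLBCL 26 to 187, the 34 of BL against GCB DLBCL 11 to 58 and the 26 of BL against ABC DLBCL 8 to 117. The cause of these changes was not tested.

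IGHV5-78 led in 4 lines, rather than 7, in the 25 libraries or with at least 1000 IGHV reads. Without it the leading share moved beyond its counting interval in 30 of 32 lines. No paired analysis was possible because each line belongs to a single pathology and the labels link no line to another.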

Other observations

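Where the runner-up outside IGHV5-78 lay was also read from the coordinates. Among the 29 lines with at least 100 such reads, it was the next row of the table along chromosome 14 in 7 lines. In 6 of these 7 it lay on the side of the leader away from the D, J and constant genes. In Ramos IGHV7-34-1 lay 3.64 kb from IGHV4-34, midpoint to midpoint as in the distances below, and had 2502 reads beside 91446. In GRANTA519 IGHVII-60-1 had 221 reads beside 68169 of IGHV4-59, at 10.4 kb. In Mino IGHV3-22 had 275 reads beside 63592 of IGHV3-21, at 22.7 kb. In MD903 IGHV3-74 had 54 beside 828 of IGHV3-73, in HT IGHV4-55 had 56 beside 1598 of IGHV3-53 and in SU-DHL-6 IGHV3-49 had 7 beside 113 of IGHV3-48. In SU-DHL-8 the pseudogene IGHV3-52, 6.30 kb on the near side of IGHV3-53, had 673 reads beside 1817.

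SU-DHL-8 was also the line with the highest RAG1 and RAG2 values of the series and 3 further rows above 1%, IGHV7-81 with 398 reads, IGHV3-66 with 185 and IGHV3-19 with 61. IGHV7-81, a V segment beyond IGHV5-78 in the locus, had reads in 24 of 34 lines, and its highest values were 7.84 in Raji and 7.69 in SU-DHL-8.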
